A study of Mus musculus with 15 samples.

Results

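Iron enters colonic epithelial cells through a few carriers, is stored in ferritin or passed to the blood, and 10 mouse genes of these steps are described here in crypt RNA. They are Tfrc, Steap3, Slc11a2 and Cybrd1 for uptake and reduction, Fth1 and Ftl1 for storage, Slc40a1 and Heph for export, Hmox1 for heme breakdown, and Ireb2 for sensing. They were chosen by name, as the rows whose gene identifiers map to these symbols, and make up 10 of the 32939 genes in the table. All 10 passed the filter on low counts, as did 17404 genes in all, but Cybrd1 did so only through the groups where it was higher. The rule names no measured threshold, but the list was drawn up with results of these libraries in view. A gene is said to have passed, risen or fallen where edgeR's quasi-likelihood test gave an adjusted p below 0.05 over the 17404 genes. Adjusted p-values place a gene's difference against the spread between samples, and the number of these genes that passed is given as a description only.

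RNA of colonic crypts, the glandular pits of the large-bowel epithelium, was sequenced in 15 libraries, 5 in each of 3 groups, and read counts per gene were used. FL-shAlpl mice had the CDAA diet with fatty liver and an AAV carrying an shRNA against Alpl, FL-shGFP mice had the same diet and liver condition with AAV-shGFP, and NL-shGFP mice had the normal diet and normal liver with AAV-shGFP. Feeds short of choline whose protein is replaced by amino acids go by the name CDAA, and Alpl encodes tissue-nonspecific alkaline phosphatase. All mice were labelled wild type and all received an AAV. Diet and liver condition changed together, so their parts cannot be told apart, and no normal-liver group received AAV-shAlpl. The labels do not give the tissue the vector reached, the sex or age, or whether replicates are separate animals, and p-values measure the spread between these samples. FL-shGFP is a group in 2 of the 3 comparisons, as are FL-shAlpl and NL-shGFP, so the comparisons are not independent of each other.

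Cells take up transferrin-bound iron through the transferrin receptor, reduce it inside endosomes and move it to the cytosol through a divalent metal carrier, while ferroportin is the known route out. Ferritin, a shell of heavy and light chains, holds what is not used. When iron is scarce, iron regulatory proteins bind hairpins called iron-responsive elements: binding in a 5′ UTR blocks translation, as in ferritin mRNA, and binding in the 3′ UTR of Tfrc mRNA slows its decay. RNA levels of ferritin genes therefore do not report ferritin protein, which was not measured here.

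The elements are printed because they tie a storage gene, an exporter and an uptake gene of this group to the same sensor. The GENCODE M21 transcripts (GRCm38) were searched for a C followed by an upper stem of 5 pairs that may include G·U, closed by the loop CAGTGN. Pairing below the C was not checked, so the search does not show that the C is bulged. This pattern was found in the 5′ UTR of 0.142% of 21901 protein-coding genes and in the 3′ UTR of 0.589%. Among the 10 genes it was found in the 5′ UTRs of Fth1, Ftl1 and Slc40a1 and in the 3′ UTR of Tfrc, which held 4 copies. The search asks for this loop and all 5 pairs, and no match says only that these letters were not in the annotated UTR. Each sequence runs 5′ to 3′ on the gene's strand over 27 bases, and capitals mark the loop.
Fth1, 5′ UTR, chr19:9982733-9982759, plus strand: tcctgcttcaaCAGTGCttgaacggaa
Ftl1, 5′ UTR, chr7:45459780-45459806, minus strand: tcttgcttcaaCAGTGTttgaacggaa
Slc40a1, 5′ UTR, chr1:45925466-45925492, minus strand: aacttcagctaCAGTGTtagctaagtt
Tfrc, 3′ UTR, chr16:32631220-32631246, plus strand: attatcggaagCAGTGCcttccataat
Tfrc, 3′ UTR, chr16:32631599-32631625, plus strand: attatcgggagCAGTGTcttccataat
Tfrc, 3′ UTR, chr16:32631664-32631690, plus strand: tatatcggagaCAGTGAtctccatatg
Tfrc, 3′ UTR, chr16:32631711-32631737, plus strand: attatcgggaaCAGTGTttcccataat

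Library totals ran from 42.1 to 58.6 M counts in FL-shAlpl, from 37.5 to 51.7 M in FL-shGFP and from 33.3 to 41.4 M in NL-shGFP. Mitochondrially encoded genes took 14.8% to 24.3% of the counts in FL-shAlpl, 13.7% to 21.5% in FL-shGFP and 28.0% to 37.5% in NL-shGFP. Alpl, the targeted gene, was scarce in crypts, with 12 counts over the 5 FL-shAlpl libraries, 95 in FL-shGFP and 2 in NL-shGFP. The labelled tissue fitted its markers: 7 epithelial genes summed to 5462 to 7854 CPM (counts scaled to a common library size) in FL-shAlpl, 5728 to 8334 in FL-shGFP and 4921 to 6335 in NL-shGFP. CPM here are scaled by TMM factors.

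Marker genes of several cell types differed between the groups, and in bulk RNA fewer cells of a type and less RNA per cell cannot be told apart. In FL-shGFP against NL-shGFP all 6 crypt stem cell genes and 6 of 10 proliferation genes were lower, and 5 of 6 surface colonocyte genes were higher, beside 46.7% of all genes tested that passed there, 25.1% higher and 21.6% lower. The 6 stem cell genes summed to 66.5 to 155 CPM in FL-shAlpl, 39.9 to 76.0 in FL-shGFP and 185 to 267 in NL-shGFP. Proliferation genes summed to 485 to 1758 CPM in FL-shAlpl, 151 to 821 in FL-shGFP and 901 to 1275 in NL-shGFP. Surface colonocyte genes, which mark mature absorptive cells, summed to 3695 to 7252 CPM in FL-shAlpl, 6578 to 17669 in FL-shGFP and 2913 to 4849 in NL-shGFP. In FL-shAlpl against FL-shGFP, 5 of 6 stem cell and 6 of 10 proliferation genes were higher and 4 of 6 surface colonocyte genes were lower, beside 36% of all genes that passed, 18% higher and 17.9% lower. Against NL-shGFP, FL-shAlpl had 2 of 6 stem cell genes lower, 1 of 6 surface colonocyte genes higher and no proliferation gene that passed, beside 17.4% of all genes, 9.31% higher and 8.12% lower.

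The median sums of immune and stromal markers were highest in FL-shGFP. Against NL-shGFP they were higher for 5 of 10 macrophage, 8 of 9 T and NK cell, 4 of 4 neutrophil, 3 of 4 B and plasma cell, 2 of 6 fibroblast, 4 of 5 endothelium and 3 of 4 smooth muscle genes, beside 25.1% of all genes. Of the 7 epithelial genes, 4 were higher and 2 lower, and none of 6 tested erythroid genes passed. In FL-shAlpl against FL-shGFP, lower genes were 1 of 10 macrophage, 9 of 9 T and NK cell, 4 of 4 neutrophil, 1 of 4 B and plasma cell, 2 of 5 endothelium and 3 of 4 smooth muscle genes, beside 17.9% of all genes. No fibroblast or erythroid gene passed there, and 2 epithelial genes were higher and 1 lower. In FL-shAlpl against NL-shGFP, 1 macrophage, 1 neutrophil, 2 B and plasma cell, 2 fibroblast, 1 endothelium and 1 epithelial gene were higher, 1 T and NK cell gene was higher and 4 were lower, and no erythroid or smooth muscle gene passed, beside 9.31% of all genes higher and 8.12% lower. The lists hold 4 to 10 genes, so a share over one of them is coarse. Macrophages recycle heme iron and red cells carry it. The 10 macrophage genes summed to 63.4 to 371 CPM in FL-shAlpl, 187 to 673 in FL-shGFP and 102 to 261 in NL-shGFP, and 7 erythroid genes to 9.56 to 221 CPM in FL-shAlpl, 52.9 to 319 in FL-shGFP and 43.1 to 133 in NL-shGFP. No macrophage or erythroid marker was at 0 in all libraries of a group.

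**Figure D1:**
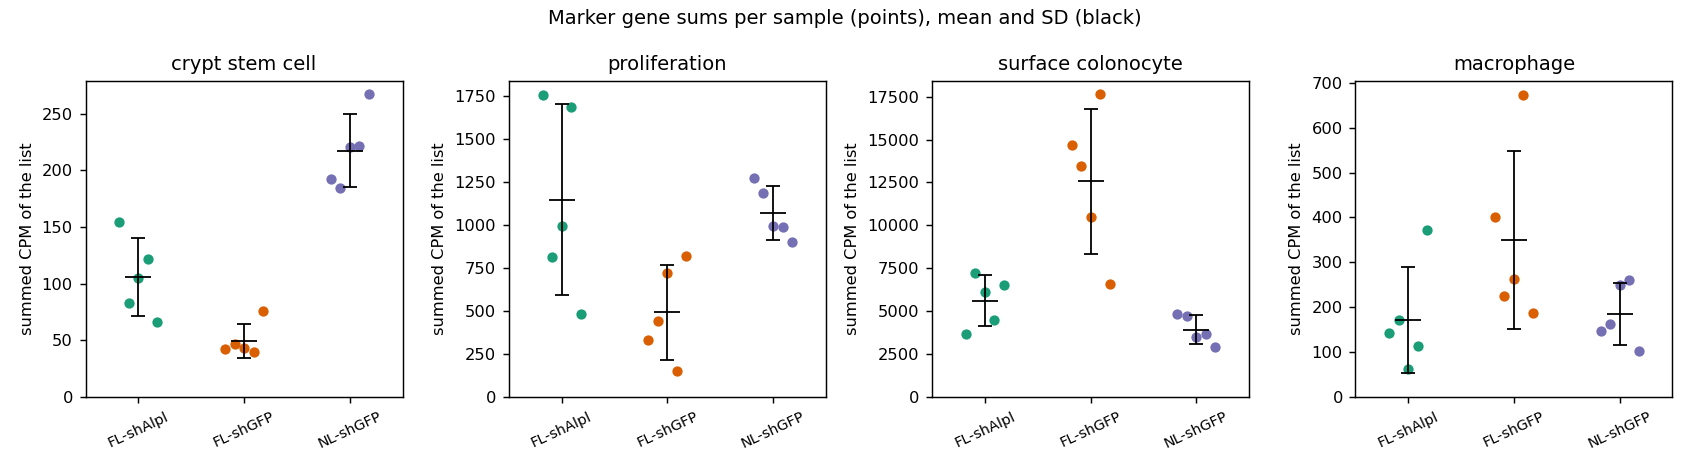
Summed CPM of 4 marker lists (crypt stem cell, proliferation, surface colonocyte, macrophage) in each of 15 samples, with the mean and SD in black. Stem cell sums of the FL-shGFP samples lie between 39.9 and 76.0 CPM, below every NL-shGFP sample, and their surface colonocyte sums between 6578 and 17669 CPM, above every NL-shGFP sample.

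Per gene length, the ferritin heavy chain was the most abundant of the 10 RNAs in every group. Fth1 averaged 526 ± 97.0 FPKM in FL-shAlpl, 902 ± 197 in FL-shGFP and 416 ± 120 in NL-shGFP (SD, n = 5 each). Ftl1 came next in FL-shAlpl and FL-shGFP, and after Tfrc in NL-shGFP, with 92.8 ± 10.7, 92.2 ± 4.98 and 61.3 ± 3.65 FPKM in FL-shAlpl, FL-shGFP and NL-shGFP, although most of its sequence is shared with copies elsewhere. In NL-shGFP the Tfrc and Ftl1 levels, 65.3 ± 20.6 and 61.3 ± 3.65 FPKM, lay within their spread, whereas in FL-shGFP Heph, at 30.3 ± 6.32 FPKM, Tfrc, at 25.1 ± 5.90, and Slc40a1, at 20.4 ± 7.87, overlapped each other. Slc11a2, Steap3, Hmox1 and Ireb2 averaged between 1.73 FPKM (Steap3 in FL-shGFP) and 13.1 FPKM (Hmox1 in FL-shGFP). Cybrd1 was at the bottom in every group, with means of 0.0388, 0.0938 and 0.00632 FPKM in FL-shAlpl, FL-shGFP and NL-shGFP.

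**Figure D2:**
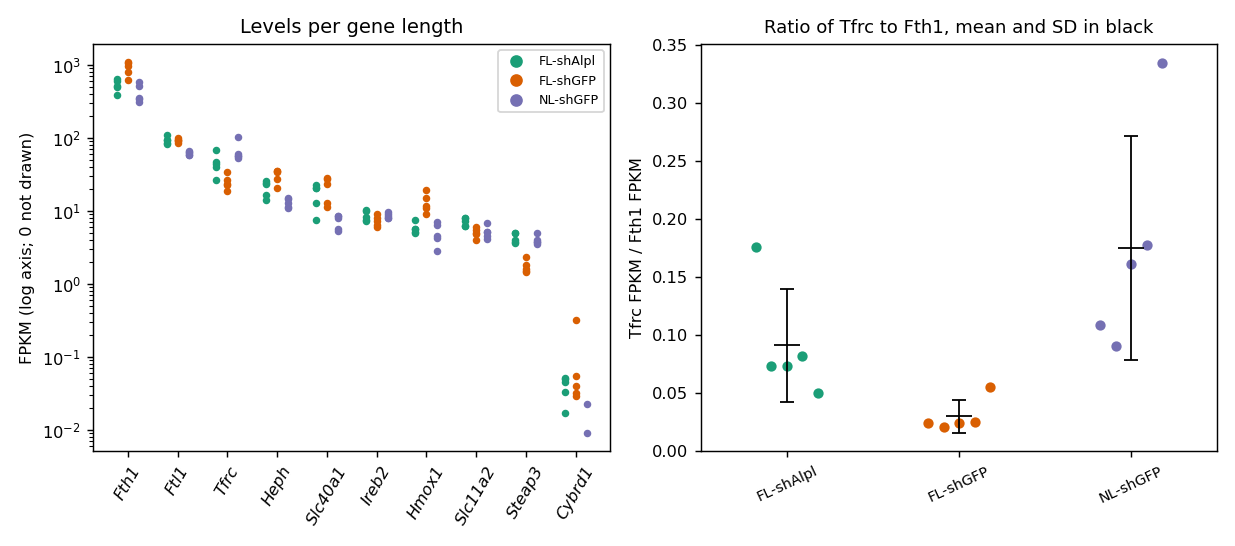
Left, FPKM of the 10 genes in every sample on a log axis, coloured by group and ordered by level; samples at 0 are not drawn. Right, the ratio of Tfrc to Fth1 FPKM per sample with the mean and SD in black: the FL-shGFP samples lie between 0.0210 and 0.0557, below all 5 NL-shGFP samples, which lie between 0.0907 and 0.335.

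In FL-shGFP against NL-shGFP, 6 of the 10 genes were higher (Slc40a1, Heph, Fth1, Ftl1, Hmox1 and Cybrd1), 3 were lower (Tfrc, Steap3 and Ireb2), and Slc11a2 did not pass. Over all genes tested, 46.7% passed in this comparison, 25.1% higher and 21.6% lower. The 5 FL-shGFP values lay wholly outside the range of the NL-shGFP values in 7 of the 10 genes, 5 higher and 2 lower, against 34.2% of all genes, 18.1% higher and 16.2% lower. Cybrd1 is counted among the higher genes in both counts, though it passed the filter on low counts only through the fatty-liver groups. The median log2 fold change of the 10 genes, Cybrd1 included, was 0.82, beside -0.0016 over all genes tested. With Cybrd1 left out, the middle value is that of Ftl1, 0.54. In FL-shAlpl against FL-shGFP, Tfrc and Steap3 were higher, Heph, Fth1 and Hmox1 were lower, and 5 genes did not pass. Over all genes 36% passed there, 18% higher and 17.9% lower, and the groups did not overlap in 2 of the 10 genes, 1 each way, and in 16.9% of all genes, 7.63% higher and 9.29% lower. The median was -0.24 for the 10 genes and -0.0037 for all. In FL-shAlpl against NL-shGFP, Slc40a1 and Ftl1 were higher, Tfrc was lower and 7 did not pass, with 17.4% of all genes passing, 9.31% higher and 8.12% lower. Groups did not overlap there in 1 of the 10 genes, higher, and in 14.6% of all genes, 7.54% higher and 7.01% lower, and the medians were 0.29 and 0.05. The median of 0.29 includes Cybrd1 too, and without it the middle value is that of Fth1, 0.21.

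**Figure D3:**
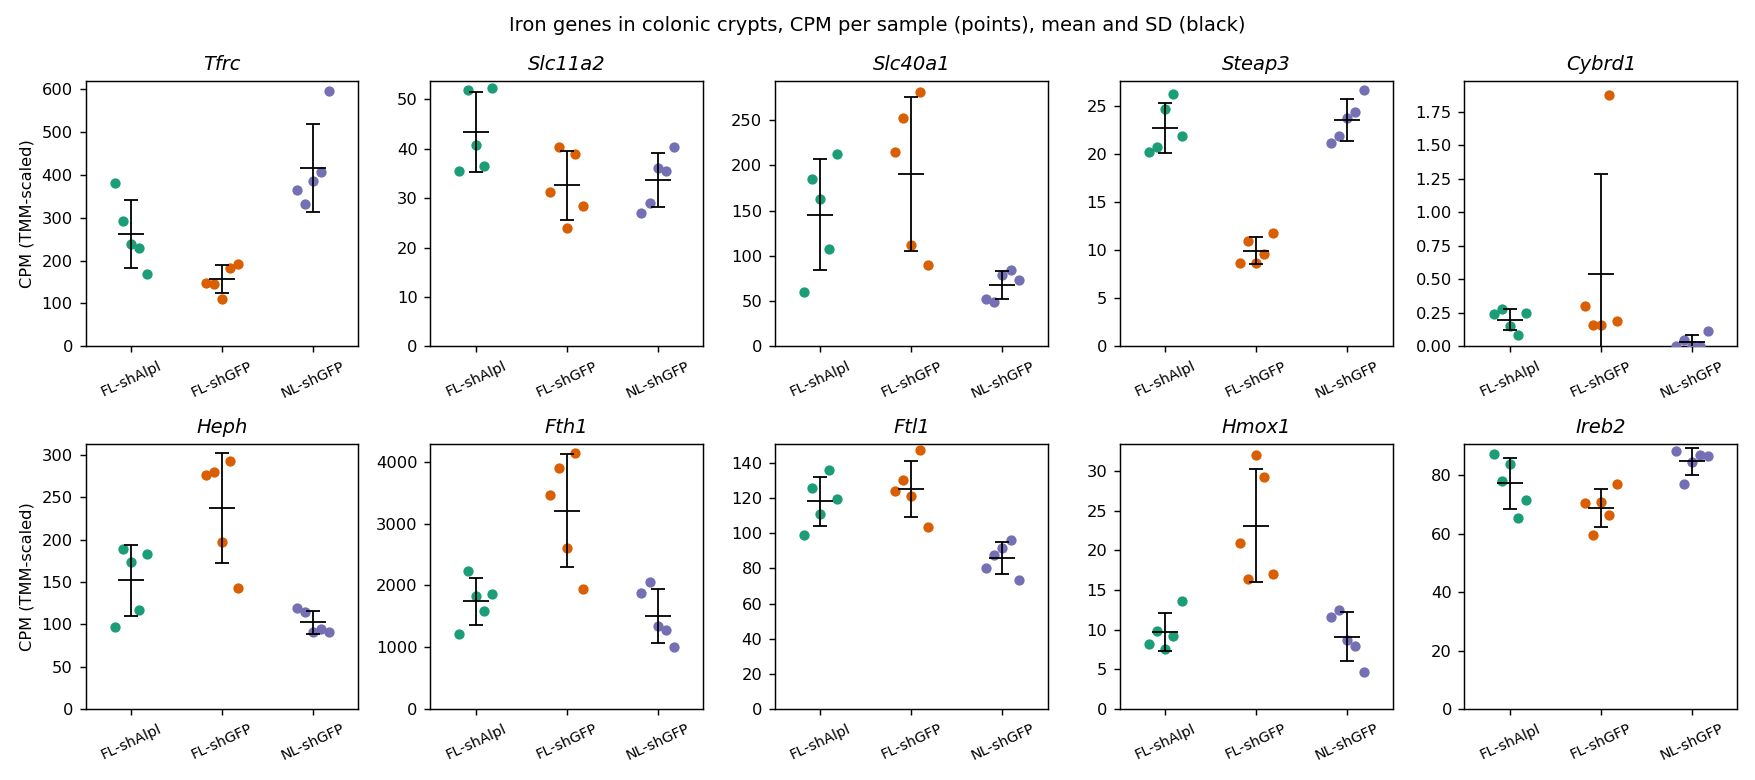
TMM-scaled CPM of the 10 genes in each sample, with the mean and SD in black and each axis starting at 0, where lower SD bars of Cybrd1 are cut. The 5 FL-shGFP samples lie below every NL-shGFP sample for Tfrc and Steap3 and above every one for Slc40a1, Heph, Ftl1 and Hmox1.

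Tfrc, the transferrin receptor, was lowest in FL-shGFP and partly higher again in FL-shAlpl. It had 381, 294, 239.5, 229.9 and 168 CPM in FL-shAlpl replicates 1 to 5, 148, 146, 111, 184 and 192 CPM in FL-shGFP, and 364, 331, 386, 407 and 595 CPM in NL-shGFP. Every FL-shGFP sample lay below every NL-shGFP sample, and 4 of 5 FL-shAlpl samples lay above every FL-shGFP sample. In FL-shGFP against NL-shGFP Tfrc fell by 1.41 ± 0.22 on the log2 scale (edgeR log2 fold change ± standard error, adjusted p = 0.000156), a 2.67-fold lower level. In FL-shAlpl against FL-shGFP it rose by 0.75 ± 0.21, or 1.68-fold (edgeR adjusted p = 0.0141). FL-shAlpl stayed below NL-shGFP with a log2 fold change of -0.67 ± 0.21 (edgeR adjusted p = 0.0409), but that call was lost in 15 of 28 other settings. Among them were the fits that left out NL-shGFP replicate 1, 3, 4 or 5, replicate 1 of FL-shGFP, or FL-shAlpl replicate 2, 3, 4 or 5, with edgeR adjusted p from 0.0501 to 0.111. Median stem cell sums had the same order of groups as Tfrc, with 105 CPM in FL-shAlpl, 42.8 in FL-shGFP and 221 in NL-shGFP. Median proliferation sums were also lowest in FL-shGFP, at 443 CPM, but 994 in FL-shAlpl and 997 in NL-shGFP. NL-shGFP replicate 5 had the highest Tfrc and stem cell sum (267 CPM) and the lowest proliferation sum (901 CPM) of its group. In FL-shAlpl, replicate 1 was highest in Tfrc and in both sums (155 and 1758 CPM), and replicate 5 was lowest in all of these (66.5 and 485 CPM). In FL-shGFP, replicate 5 was highest in all of them (76.0 and 821 CPM). The lowest Tfrc was there in replicate 3, and the lowest sums were in replicate 4. Dividing cells express Tfrc highly, and the part of cell makeup in the Tfrc result was not tested.

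Steap3, the endosomal reductase that turns ferric into ferrous iron after transferrin uptake, was lowest in FL-shGFP. It had 20.2, 20.7, 24.6, 26.2 and 21.9 CPM in FL-shAlpl, 8.64, 10.9, 8.69, 9.64 and 11.8 CPM in FL-shGFP, and 21.2, 21.9, 23.8, 24.4 and 26.7 CPM in NL-shGFP. The FL-shGFP samples were all below both other groups, whose values overlapped. Steap3 fell by 1.24 ± 0.12 in FL-shGFP against NL-shGFP, 2.37-fold (edgeR adjusted p = 5.76e-06), and rose by 1.19 ± 0.12 in FL-shAlpl against FL-shGFP, 2.28-fold (edgeR adjusted p = 3.22e-05). FL-shAlpl and NL-shGFP differed by -0.05 ± 0.12, which did not pass (edgeR adjusted p = 0.802). Both passing calls held in all 28 other settings.

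Slc11a2, the divalent metal transporter DMT1, which carries ferrous iron across apical and endosomal membranes, did not pass in any comparison. It had 35.6, 51.8, 40.8, 36.5 and 52.3 CPM in FL-shAlpl, 31.2, 40.4, 23.9, 38.9 and 28.5 CPM in FL-shGFP, and 27, 29.1, 36.0, 35.4 and 40.4 CPM in NL-shGFP, and all 3 groups overlapped. The log2 fold changes were -0.05 ± 0.16 in FL-shGFP against NL-shGFP (edgeR adjusted p = 0.839), 0.41 ± 0.16 in FL-shAlpl against FL-shGFP (0.0565) and 0.37 ± 0.16 in FL-shAlpl against NL-shGFP (0.128). The value of FL-shAlpl against FL-shGFP did pass without FL-shGFP replicate 2 or 4 or FL-shAlpl replicate 1 or 4, with edgeR adjusted p from 0.0320 to 0.0484. With library totals alone or limma on FPKM, FL-shAlpl passed against both other groups (adjusted p from 0.0180 to 0.0280).

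Cybrd1, the duodenal ferric reductase that serves dietary iron uptake in the small intestine, was close to absent. Its counts were 14, 16, 8, 4 and 10 in FL-shAlpl, 14, 8, 8, 63 and 10 in FL-shGFP, and 0, 2, 0, 0 and 4 in NL-shGFP. Of the 103 counts in FL-shGFP, 63 came from replicate 4. No NL-shGFP sample reached the level that the filter on low counts asks for. The gene was tested only because fatty-liver samples reached it, so its calls against NL-shGFP are given as a description only. Cybrd1 passed in FL-shGFP against NL-shGFP (log2 fold change 3.85 ± 0.97, edgeR adjusted p = 0.00497), at 2.5 without FL-shGFP replicate 4 (edgeR adjusted p = 0.0187) and at 4.98 without NL-shGFP replicate 5 (edgeR adjusted p = 0.00410). In FL-shAlpl against FL-shGFP it did not pass, at -1.37 ± 0.76 with replicate 4 of FL-shGFP (edgeR adjusted p = 0.170) and -0.02 without it (0.984). In FL-shAlpl against NL-shGFP it did not pass (2.48 ± 1.0, edgeR adjusted p = 0.0984), though it did without FL-shGFP replicate 4 (0.0309). Even numbers prevail among low counts here, so a count may stand for fewer molecules than it shows.

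Fth1, the ferritin heavy chain, which oxidises iron for storage, was highest in FL-shGFP. It had 1213, 2234, 1828, 1578 and 1867 CPM in FL-shAlpl, 3467, 3904, 2613, 4136 and 1938 CPM in FL-shGFP, and 1875, 2049, 1344, 1283 and 998 CPM in NL-shGFP. Replicate 5 of FL-shGFP lay within both other groups and the other 4 lay above all of them. Fth1 rose by 1.09 ± 0.24 in FL-shGFP against NL-shGFP, 2.13-fold (edgeR adjusted p = 0.00217). It fell by 0.88 ± 0.24 in FL-shAlpl against FL-shGFP, 1.84-fold (edgeR adjusted p = 0.0114). FL-shAlpl and NL-shGFP differed by 0.21 ± 0.24 and this did not pass (edgeR adjusted p = 0.603). The 2 passing calls held in all 28 other settings.

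Ftl1, the ferritin light chain, which helps form the mineral core, was higher in both fatty-liver groups than in NL-shGFP. It had 99.1, 126, 111, 136 and 119.8 CPM in FL-shAlpl, 124, 130.4, 121, 147 and 104 CPM in FL-shGFP, and 80.3, 87.7, 91.6, 96.4 and 73.7 CPM in NL-shGFP. All samples of both fatty-liver groups lay above every NL-shGFP sample, and the fatty-liver groups overlapped each other. Ftl1 rose by 0.54 ± 0.11 in FL-shGFP against NL-shGFP (edgeR adjusted p = 0.00125) and by 0.46 ± 0.11 in FL-shAlpl against NL-shGFP (edgeR adjusted p = 0.0103). The difference of FL-shAlpl from FL-shGFP did not pass (-0.08 ± 0.11, edgeR adjusted p = 0.585). Of the 50-base windows of its transcript, 78.9% also occur in other annotated genes, 15 in all, led by the pseudogene Ftl1-ps1, so its level depends on how shared reads were assigned. Adding 6 rows of ferritin copies with pseudogene symbols to Fth1 and Ftl1 changed no call of either gene. Other genes that share windows were not added, such as Gm15590 and Gm12164 for Ftl1 and Gm6977 for Fth1. The effect of shared reads is therefore not settled by this.

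Heavy and light chain RNA did not keep one ratio. The ratio of Fth1 to Ftl1 FPKM had a median of 6.02 in FL-shAlpl (4.49 to 6.86), 10.8 in FL-shGFP (7.23 to 11.6) and 5.67 in NL-shGFP (5.14 to 9.03), so that all FL-shGFP ratios lay above all FL-shAlpl ratios and overlapped the NL-shGFP ratios. The ratio of Tfrc to Fth1 FPKM, the receptor over the store, was 0.176, 0.0737, 0.0735, 0.0817 and 0.0504 in FL-shAlpl, 0.0240, 0.0210, 0.0239, 0.0249 and 0.0557 in FL-shGFP, and 0.109, 0.0907, 0.161, 0.178 and 0.335 in NL-shGFP. All FL-shGFP ratios were below all NL-shGFP ratios, and 4 of 5 FL-shAlpl ratios were above all FL-shGFP ratios. The ratios were formed after the levels were seen and were not tested.

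Slc40a1, ferroportin, the iron exporter of the basolateral membrane, was higher under the CDAA diet in both vector groups. It had 59.7, 185, 163, 107 and 213 CPM in FL-shAlpl, 215, 253, 111, 282 and 90.4 CPM in FL-shGFP, and 52.7, 49.2, 79.0, 84.2 and 73.1 CPM in NL-shGFP. Every FL-shGFP sample was above every NL-shGFP sample, and 4 of 5 FL-shAlpl samples were. Slc40a1 rose by 1.49 ± 0.35 in FL-shGFP against NL-shGFP, 2.81-fold (edgeR adjusted p = 0.00356). In FL-shAlpl against NL-shGFP it rose by 1.10 ± 0.35, 2.15-fold (edgeR adjusted p = 0.0413), a call lost in 13 of 28 other settings. These include leaving out any NL-shGFP replicate, FL-shGFP replicate 1, or FL-shAlpl replicate 2, 3 or 5, where edgeR adjusted p ran from 0.0511 to 0.115. FL-shAlpl and FL-shGFP differed by -0.39 ± 0.35, which did not pass (edgeR adjusted p = 0.401).

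Heph, hephaestin, the copper ferroxidase that works with ferroportin, was also highest in FL-shGFP. It had 97.3, 188, 174, 117 and 183 CPM in FL-shAlpl, 276, 279.8, 197, 292 and 143 CPM in FL-shGFP, and 119.6, 115, 91.4, 94.6 and 91.2 CPM in NL-shGFP. All FL-shGFP samples lay above all NL-shGFP samples, while FL-shAlpl overlapped both. Heph rose by 1.22 ± 0.21 in FL-shGFP against NL-shGFP, 2.32-fold (edgeR adjusted p = 0.000425), and fell by 0.65 ± 0.21 in FL-shAlpl against FL-shGFP, 1.57-fold (edgeR adjusted p = 0.0262). The fall was lost in 8 of 28 other settings, among them a fit with the replicate number as a block (edgeR adjusted p = 0.0589) and leaving out FL-shGFP replicate 1, 2 or 4 or FL-shAlpl replicate 1 or 4 (0.0605 to 0.0697). FL-shAlpl against NL-shGFP did not pass (0.57 ± 0.21, edgeR adjusted p = 0.0734), but did without FL-shGFP replicate 5 (0.0375) or FL-shAlpl replicate 1 (0.0223), and in 4 other settings (0.0135 to 0.0468). Surface colonocyte sums were higher and stem cell sums lower where Fth1, Slc40a1 and Heph were higher, and the part of cell makeup in these results was not tested.

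Hmox1, heme oxygenase 1, which frees iron from heme and is induced by heme and by oxidative stress, was raised in FL-shGFP alone of the 3 groups. It had 8.20, 9.87, 7.53, 9.14 and 13.6 CPM in FL-shAlpl, 20.9, 16.4, 32.1, 29.3 and 17 CPM in FL-shGFP, and 11.6, 12.5, 8.70, 8.0 and 4.69 CPM in NL-shGFP. The FL-shGFP samples were above all samples of both other groups, which overlapped. Hmox1 rose by 1.34 ± 0.26 in FL-shGFP against NL-shGFP, 2.54-fold (edgeR adjusted p = 0.000892), and fell by 1.26 ± 0.26 in FL-shAlpl against FL-shGFP, 2.39-fold (edgeR adjusted p = 0.00239). FL-shAlpl and NL-shGFP differed by 0.09 ± 0.26 and this did not pass (edgeR adjusted p = 0.859). Macrophages express Hmox1 strongly, the macrophage sums given above overlapped between FL-shGFP and NL-shGFP, and neutrophil sums were 87.9 to 238 CPM in FL-shAlpl, 868 to 1514 in FL-shGFP and 45.0 to 184 in NL-shGFP. Of these sums the largest part in both fatty-liver groups came from Ly6g, with means of 120 CPM in FL-shAlpl, 641 in FL-shGFP and 37.3 in NL-shGFP. In FL-shAlpl against NL-shGFP, Ly6g rose by 1.68 ± 0.34 (edgeR adjusted p = 0.00409) and no other neutrophil gene passed. The neutrophil gene Camp was at 0 in all NL-shGFP libraries. The part of these cells in the Hmox1 result was not tested.

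Ireb2, iron regulatory protein 2, is itself one of the sensors that bind the printed elements, and its RNA moved least among the genes that passed. It had 87.4, 78.0, 83.8, 65.6 and 71.7 CPM in FL-shAlpl, 70.5, 59.5, 71.0, 66.6 and 77.1 CPM in FL-shGFP, and 88.5, 77, 84.7, 87.0 and 86.8 CPM in NL-shGFP. Of the FL-shGFP samples, 4 of 5 lay below every NL-shGFP sample. Ireb2 fell by 0.30 ± 0.09 in FL-shGFP against NL-shGFP (edgeR adjusted p = 0.0159), a call lost with library totals in place of TMM factors (edgeR adjusted p = 0.147) and with limma on FPKM (0.132 and 0.136). FL-shAlpl against FL-shGFP (0.17 ± 0.09, edgeR adjusted p = 0.173) and against NL-shGFP (-0.13 ± 0.09, 0.354) did not pass.

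**Figure D4:**
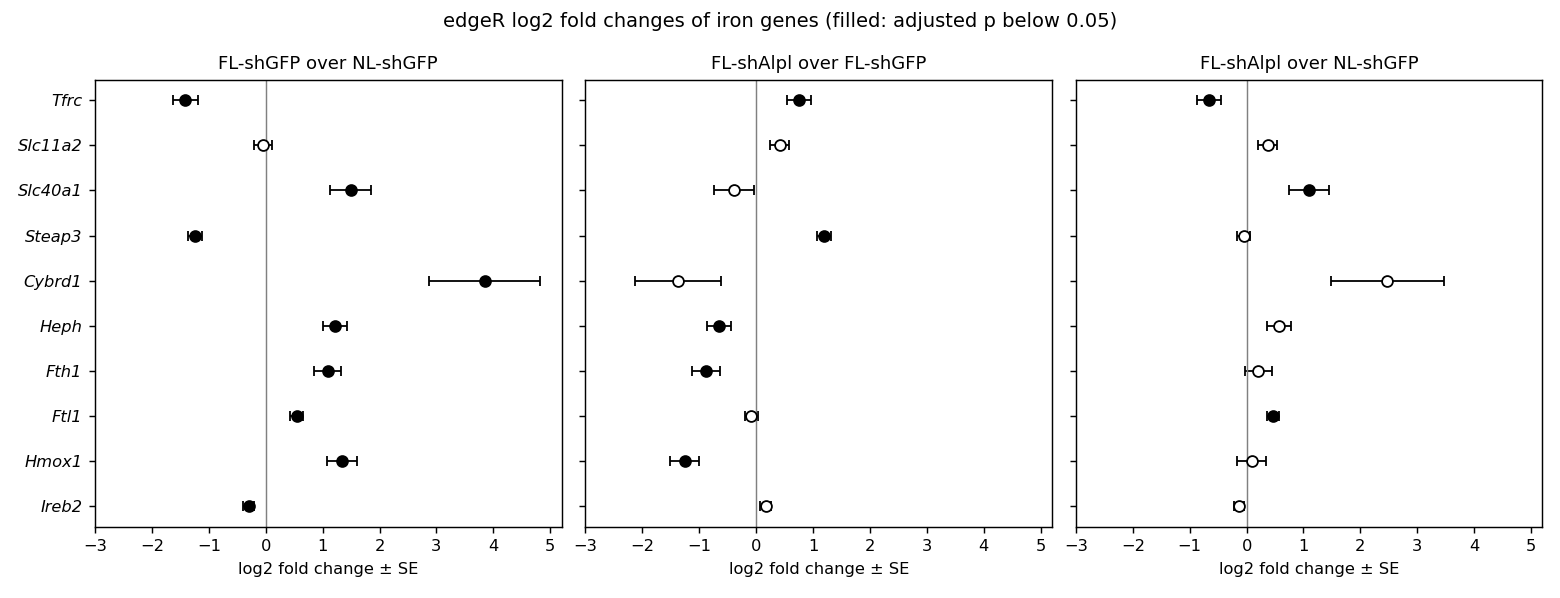
edgeR log2 fold change ± standard error of the 10 genes in each comparison, filled where adjusted p was below 0.05. In FL-shGFP over NL-shGFP, Slc40a1, Heph, Fth1 and Hmox1 lie between 1.09 and 1.49 and Tfrc and Steap3 at -1.41 and -1.24; in FL-shAlpl over FL-shGFP, Tfrc and Steap3 are positive and Heph, Fth1 and Hmox1 negative.

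The genes also differed in how they varied inside a group. With group means removed, log2 CPM over the 15 samples gave Pearson r = 0.89 between Heph and Fth1, 0.83 between Slc11a2 and Slc40a1 and 0.79 between Slc40a1 and Heph, and r = -0.68 between Ftl1 and Ireb2 and -0.67 between Tfrc and Hmox1. These values describe 15 libraries that share depth, scaling and cell makeup within each sample. The r values of the closest genes keep the group means, so differences between groups enter them. Across 10031 other genes with at least 5 mean CPM, the closest to Heph over the 15 samples were Myh14, Synpo and Naip1 (r = 0.99 each), and the closest to Fth1 were Myo15b, Unc5b and Myo5b (0.98 each). Tfrc was closest to Appbp2 (0.94), Camta1 (0.93) and Hspa4l (0.92), and Steap3 to Ptms, Jmjd8 and Oxnad1 (0.96 each). For Slc40a1 the closest were Sort1 (0.98), Sipa1l3 and Slc31a1 (0.97 each), and for Hmox1 they were Cst6 (0.95), Npc1 and Ngp (0.94 each). Ftl1 was closest to Nlrp10, Mtfr1l and Cyp2d9 (0.94 each), Slc11a2 to Hoxa10 (0.92), Fads2 (0.91) and Zmat3 (0.90), and Ireb2 to Luc7l3 (0.93), Canx (0.92) and Upf3b (0.91). Cybrd1, with few counts, was closest to Cul1 (0.94), Mfap3 (0.89) and Pias1 (0.88). With group means removed, r of these pairs ran from 0.66 (Tfrc with Hspa4l) to 0.98 (Heph with Myh14). For Steap3 it was then 0.73 with Ptms, 0.70 with Jmjd8 and 0.68 with Oxnad1.

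Beyond the 10, 61 other genes of iron and heme handling were listed by role, of which 60 were in the table and 52 were tested. In FL-shGFP against NL-shGFP 15 were higher, 13 lower and 24 did not pass, with a median log2 fold change of -0.07. In FL-shAlpl against FL-shGFP 16 were higher, 13 lower and 23 did not pass (median 0.03), and in FL-shAlpl against NL-shGFP 6 were higher, 5 lower and 41 did not pass (median 0.13). The shares and medians over all genes are those given above. Of each list, genes with the smallest p are named.

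Of 10 other uptake and reduction genes, 5 were higher and 2 lower in FL-shGFP against NL-shGFP, 2 higher and 5 lower in FL-shAlpl against FL-shGFP, and 4 higher and 2 lower in FL-shAlpl against NL-shGFP. Trf, the plasma iron carrier transferrin, averaged 14.6 ± 5.42 CPM in FL-shAlpl, 22.4 ± 13 in FL-shGFP and 3.90 ± 0.475 in NL-shGFP, and rose by 2.52 ± 0.34 in FL-shGFP against NL-shGFP (edgeR adjusted p = 6.85e-05). Lcn2, lipocalin 2, which binds bacterial siderophores, averaged 8.52 ± 4.06 CPM in FL-shAlpl, 92.0 ± 58.0 in FL-shGFP and 5.46 ± 3.26 in NL-shGFP. It rose by 4.07 ± 0.61 in FL-shGFP against NL-shGFP (edgeR adjusted p = 0.000155) and fell by 3.43 ± 0.59 in FL-shAlpl against FL-shGFP (edgeR adjusted p = 0.000843). Hfe, the partner of the transferrin receptor in iron sensing, rose by 0.96 ± 0.15 in FL-shGFP (edgeR adjusted p = 0.000144) and by 0.97 ± 0.15 in FL-shAlpl (0.000496), both against NL-shGFP. Steap4, another metalloreductase, rose by 2.35 ± 0.38 in FL-shGFP against NL-shGFP (edgeR adjusted p = 0.000257).

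The 5 genes for chaperones, ferritin turnover and ferroxidases had 2 higher and 1 lower in FL-shGFP against NL-shGFP, 2 higher and 1 lower in FL-shAlpl against FL-shGFP, and none that passed in FL-shAlpl against NL-shGFP. Pcbp1, a chaperone that delivers iron to ferritin, averaged 217 ± 40.4 CPM in FL-shAlpl, 148 ± 15.4 in FL-shGFP and 214 ± 16.9 in NL-shGFP. It fell by 0.53 ± 0.12 in FL-shGFP against NL-shGFP (edgeR adjusted p = 0.00283) and rose by 0.55 ± 0.12 in FL-shAlpl against FL-shGFP (edgeR adjusted p = 0.00365). Cp, the ferroxidase ceruloplasmin, rose by 4.58 ± 0.71 in FL-shGFP against NL-shGFP (edgeR adjusted p = 0.000209) and fell by 2.65 ± 0.63 in FL-shAlpl against FL-shGFP (0.00594). Without FL-shGFP replicate 4 these were 3.61 and -1.67. Pcbp2 rose by 0.44 ± 0.14 in FL-shAlpl against FL-shGFP (edgeR adjusted p = 0.0213), a call lost in 5 of 28 other settings: only the 2 groups compared (0.0619), the replicate block (0.0549), and without FL-shGFP replicate 1 or 4 or FL-shAlpl replicate 4 (0.0551 to 0.0594). Hephl1, a relative of hephaestin, did not pass in any comparison.

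Heme genes went both ways. Of 17, 3 were higher and 4 lower in FL-shGFP against NL-shGFP, 7 higher and 3 lower in FL-shAlpl against FL-shGFP, and 1 higher and 3 lower in FL-shAlpl against NL-shGFP. The heme synthesis gene Uros averaged 9.63 ± 1.72 CPM in FL-shAlpl, 5.02 ± 1.16 in FL-shGFP and 16.0 ± 1.28 in NL-shGFP, and fell by 1.67 ± 0.16 in FL-shGFP against NL-shGFP (edgeR adjusted p = 8e-06). Abcg2, an exporter that can carry porphyrins, rose by 1.31 ± 0.27 in FL-shGFP against NL-shGFP (edgeR adjusted p = 0.00153), and Hp, the hemoglobin binder haptoglobin, rose by 1.81 ± 0.48 there (0.00707) and fell by 2.60 ± 0.50 in FL-shAlpl against FL-shGFP (0.00165).

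Of 13 genes for mitochondrial iron and iron-sulfur clusters, 1 was higher and 6 lower in FL-shGFP against NL-shGFP, 4 were higher and 1 lower in FL-shAlpl against FL-shGFP, and none passed in FL-shAlpl against NL-shGFP. Glrx5, a cluster carrier, averaged 35.3 ± 11.6 CPM in FL-shAlpl, 19.4 ± 5.02 in FL-shGFP and 44.7 ± 2.16 in NL-shGFP. It fell by 1.20 ± 0.20 in FL-shGFP against NL-shGFP (edgeR adjusted p = 0.000270) and rose by 0.86 ± 0.20 in FL-shAlpl against FL-shGFP (0.00423). Slc25a37, the mitochondrial iron importer mitoferrin 1, went the other way, rising by 0.59 ± 0.16 in FL-shGFP against NL-shGFP (edgeR adjusted p = 0.00826, but 0.0553 with the close NL-shGFP libraries summed) and falling in FL-shAlpl against FL-shGFP (-0.94 ± 0.16, 0.000875). The cluster chaperone Hspa9 rose by 0.80 ± 0.20 in FL-shAlpl against FL-shGFP (edgeR adjusted p = 0.00740). It fell by 0.61 ± 0.20 in FL-shGFP against NL-shGFP (edgeR adjusted p = 0.0214), a call lost in 5 of 28 other settings. These were library totals alone (adjusted p = 0.0923), limma on FPKM (0.0590 and 0.0562), the close NL-shGFP libraries summed (0.0649) and the fit without FL-shGFP replicate 1 (0.0532), with log2 fold changes from -0.63 to -0.53.

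Of 7 tested genes for iron sensing and the hepcidin axis, 4 were higher and none lower in FL-shGFP against NL-shGFP, 1 was higher and 3 lower in FL-shAlpl against FL-shGFP, and 1 was higher in FL-shAlpl against NL-shGFP. The hepcidin genes Hamp and Hamp2 did not pass the filter on low counts. Bach1, the heme-sensing repressor of Hmox1 and the ferritin genes, averaged 66.0 ± 10.5 CPM in FL-shAlpl, 93.1 ± 16.9 in FL-shGFP and 45.6 ± 3.23 in NL-shGFP, and rose by 1.03 ± 0.13 in FL-shGFP against NL-shGFP (edgeR adjusted p = 3.65e-05). Bach1 and Hmox1 were thus both highest in FL-shGFP. Epas1, which encodes the hypoxia factor HIF-2α, a regulator of intestinal iron transport genes, rose by 1.47 ± 0.25 in FL-shGFP against NL-shGFP (edgeR adjusted p = 0.000392). Fbxl5 marks iron regulatory protein 2 for breakdown when iron is plentiful. It rose by 0.40 ± 0.11 in FL-shGFP against NL-shGFP (edgeR adjusted p = 0.00778) and fell by 0.48 ± 0.11 in FL-shAlpl against FL-shGFP (0.00423). FL-shAlpl against NL-shGFP did not pass for Fbxl5 (-0.08 ± 0.11, edgeR adjusted p = 0.675). Aco1, iron regulatory protein 1, rose by 0.43 ± 0.10 in FL-shAlpl against FL-shGFP (edgeR adjusted p = 0.00541).

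**Figure D5:**
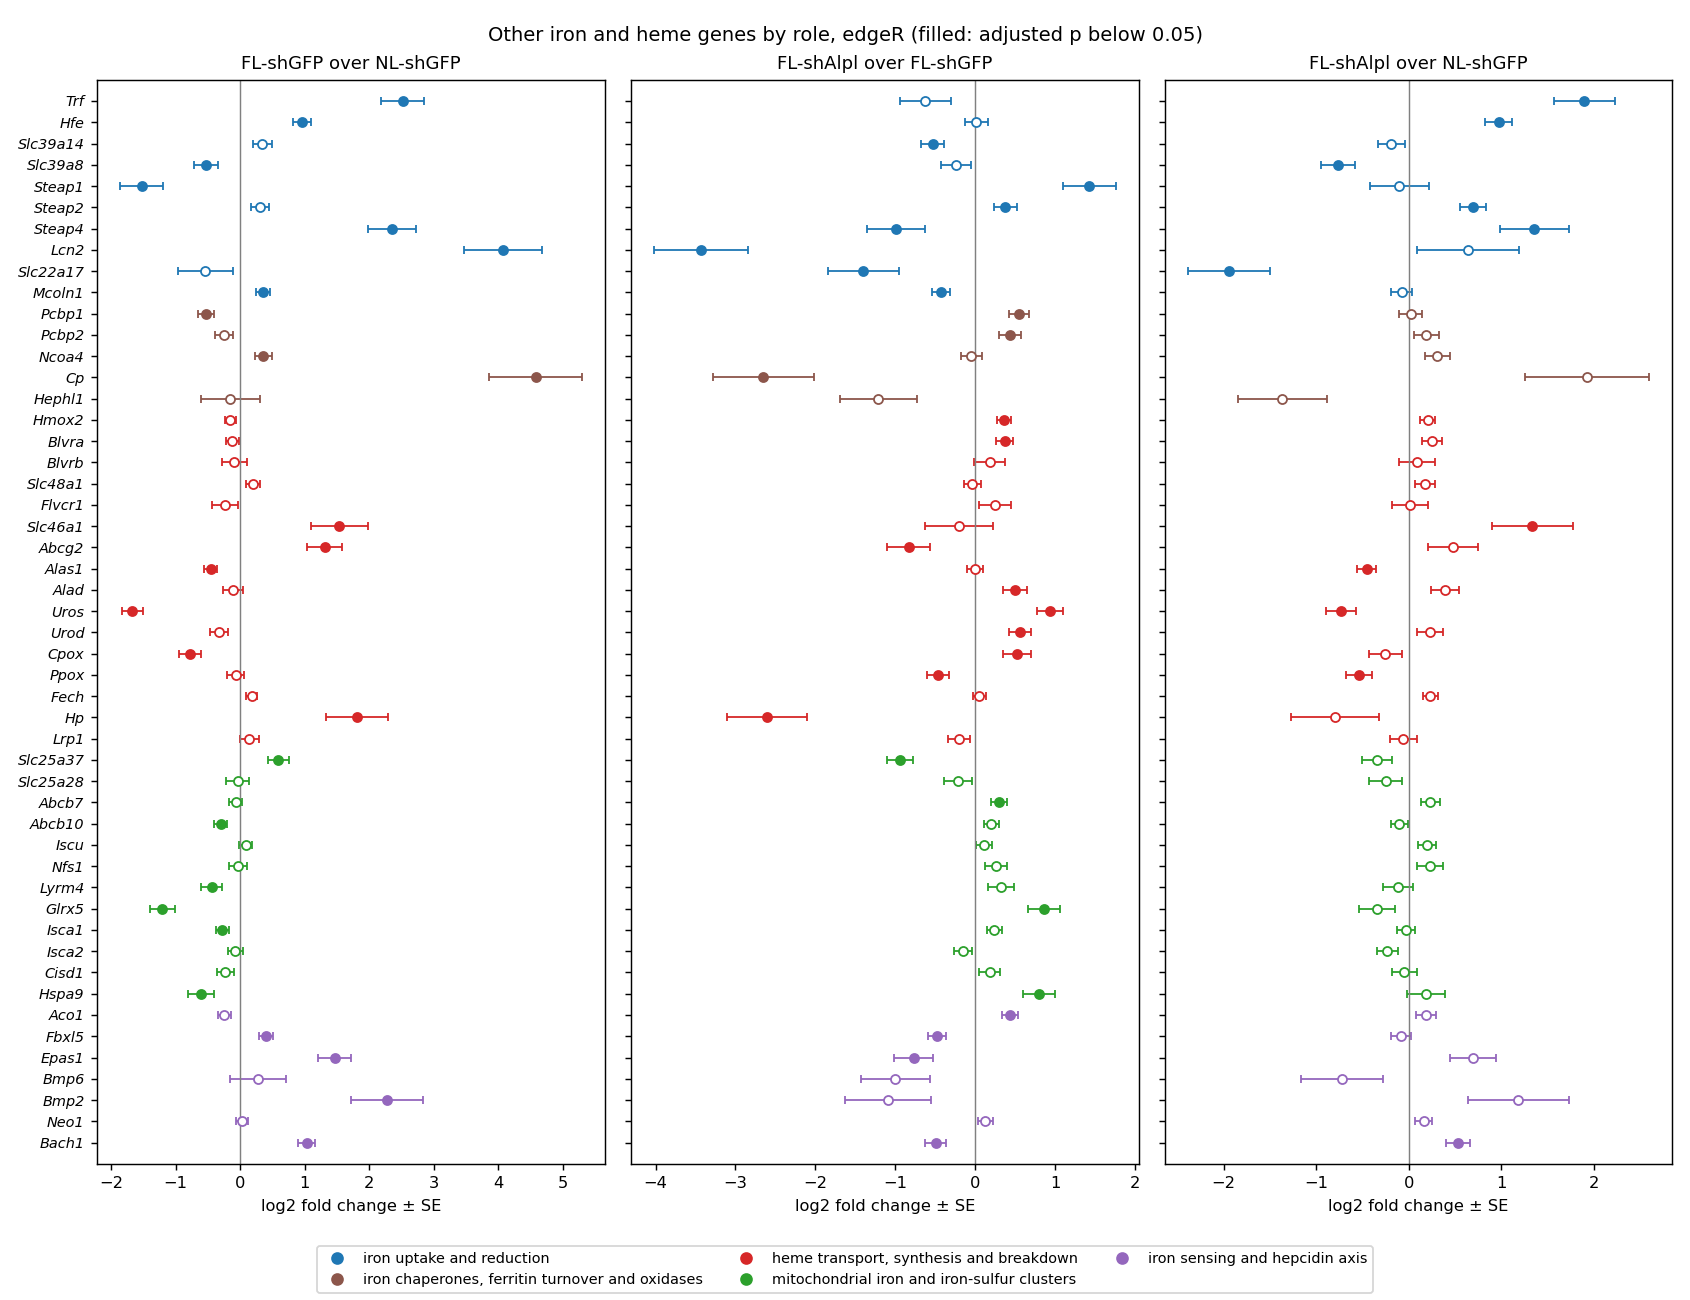
edgeR log2 fold change ± standard error of 50 of the other tested iron and heme genes in the 3 comparisons, coloured by role and filled where adjusted p was below 0.05. Lcn2 and Cp lie farthest right in FL-shGFP over NL-shGFP, at 4.07 and 4.58, and on the negative side in FL-shAlpl over FL-shGFP, at -3.43 and -2.65.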

How the data were processed

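The deposited tables hold whole-number read counts per gene and FPKM for all 15 samples. HISAT2 was the aligner named, per the submitters' processing notes. Not given in the sources used here are its version, the genome build and annotation, the counter and its strand setting. Each deposited FPKM value equals the count over library total and 1 fixed length for that gene (largest relative spread 1.40e-06), so both tables hold the same reads. Without strand, reads of overlapping genes (Slc11a2, Heph and Ftl1 have such neighbours) cannot be separated. Of the counts from 1 to 12, 72.4% to 77.2% per library were even. Of 32939 identifiers, 32241 matched a symbol and 698 did not, and 0 value columns lacked a sample.

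edgeR 4.0.16 (R 4.3.3; quasi-likelihood, robust, TMM, filterByExpr) fitted 3 group means to 17404 genes of 15 samples with 12 residual degrees of freedom, two-sided, Benjamini-Hochberg at 0.05 over all genes, and 15535 genes were untested. The common biological coefficient of variation was 30.2%. Standard errors of edgeR log2 fold changes were back-calculated as the absolute log2 fold change over the square root of the F statistic. They carry no information beyond that test and are rough for genes with few counts. Alternatives tried were DESeq2 1.42.0, upper-quartile factors or RLE, library totals alone, 1 CPM in 5 samples or no filter, limma 3.58.1 on log2(FPKM + 1) and log2(FPKM + 0.1), only the 2 groups compared, a replicate block, no mitochondrially encoded genes, close NL-shGFP libraries summed (replicates 1 with 2 and 3 with 4, median chi-square per gene 2.36 and 1.52, against 0.455 if alike), ferritin copies added, and each sample left out. Samples of the same replicate number had correlations of deviations from -0.353 to 0.326, and samples of different numbers from -0.323 to 0.381. Between FL-shGFP and NL-shGFP the highest was 0.326 for the same number and 0.171 for different numbers. Whether the numbers pair samples is not settled by these values. The code was tested on simulated data.

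The members, the 18 other lists and the tests were chosen with earlier results of these data known. Named genes are all 10 members, per list up to 4 genes by smallest p, and per member 3 genes by Pearson r of log2 CPM (prior count 2, at least 5 mean CPM, no predicted genes or pseudogenes). The 12 cell marker lists are given as counts and sums. A few further genes, such as Nfe2l2, Keap1 and Ly6g, are named where a count or sum depends on them. Some genes that meet the rule are not reported here. Figures used Python 3.11.15 and matplotlib 3.10.9.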

Additional observations from a re-analysis of the deposited data

Results flagged for a closer look

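Tfrc stood at 595 CPM in NL-shGFP replicate 5, far from the next NL-shGFP sample at 407 CPM, a gap of 0.715 of the group's range against a critical value of 0.71 for 5 samples. Cybrd1 stood at 1.87 CPM in FL-shGFP replicate 4, far from the next sample at 0.302 CPM, a gap of 0.918 of the range. Chance alone marks about 1 in 20 groups in this way, and 30 groups of samples were looked at.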

How the results depend on the processing

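Across 28 alternatives, 764 of 832 values of the 10 genes kept their direction and their side of the threshold, 40 lost the call, 17 gained one and 11 changed sign. The passing calls of Tfrc, Slc40a1, Steap3, Heph, Fth1, Ftl1 and Hmox1 in FL-shGFP against NL-shGFP, of Tfrc, Steap3, Fth1 and Hmox1 in FL-shAlpl against FL-shGFP, and of Ftl1 in FL-shAlpl against NL-shGFP held in all of them. Those that changed sign never passed. They were Slc11a2 in FL-shGFP against NL-shGFP without replicate 5 of NL-shGFP (0.025) or replicate 3 of FL-shGFP (0.046; -0.14 to 0.046 with a sample left out), and Ftl1 in FL-shAlpl against FL-shGFP with totals alone (0.010) or limma on either FPKM scale (0.0048 and 0.0048). In FL-shAlpl against NL-shGFP they were Steap3 with totals alone (0.084) or limma with a pseudocount of 1 (0.064) or 0.1 (0.078), Hmox1 without NL-shGFP replicate 5 (-0.079) or FL-shAlpl replicate 5 (-0.066; -0.079 to 0.23 with a sample left out), and Ireb2 with totals alone (0.0067). The 3 calls of FL-shAlpl against NL-shGFP became 1 with no filter, 1 with the replicate block and 1 with the close NL-shGFP libraries summed, and 1 to 4 with a sample left out. Summing the close libraries also gave 18 other iron genes in FL-shGFP against NL-shGFP in place of 28, and 1340 genes in all in FL-shAlpl against NL-shGFP in place of 3035. That count was 1979 to 3523 with a sample left out, lowest without FL-shAlpl replicate 2. The causes were not tested. Beyond the calls named in the report, the replicate block ended those of Steap4, Pcbp2 and Epas1 in FL-shAlpl against FL-shGFP. With totals alone, 65.8% of calls in FL-shGFP against NL-shGFP were higher, against 53.8% with TMM factors, and 75.0% against 53.4% in FL-shAlpl against NL-shGFP, where the median of all genes moved to 0.19 from 0.05; upper-quartile factors gave 42.3% there and limma 70.4% and 71.3%. Cybrd1 was not tested at 1 CPM in 5 samples and had no adjusted p in DESeq2. In fits of only the 2 groups compared it was not tested against NL-shGFP in either comparison. With limma on log2(FPKM + 1) it did not pass in FL-shGFP against NL-shGFP (adjusted p = 0.0960). Recomputed after the data were seen, 37 of 44 passing values of the other iron, heme and NRF2 genes named by smallest p held in every alternative. Among those that did not were Steap4, Abcg2 and Epas1 in FL-shAlpl against FL-shGFP.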

Other observations

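Of 11 genes known as targets or partners of NRF2, the factor that answers oxidative stress and also drives Hmox1 and ferritin genes, 4 were higher and 2 lower in FL-shGFP against NL-shGFP, 1 higher and 2 lower in FL-shAlpl against FL-shGFP, and 4 higher and none lower in FL-shAlpl against NL-shGFP. Over all genes tested, 25.1% were higher and 21.6% lower, 18% higher and 17.9% lower, and 9.31% higher and 8.12% lower in these comparisons, so the list is read as a description only. The 2 lower in FL-shGFP against NL-shGFP were the gene of NRF2 itself, Nfe2l2 (-0.30 ± 0.11, edgeR adjusted p = 0.0401), and its partner Keap1 (-0.33 ± 0.10, 0.0116). The 4 higher there were targets, and no target was lower. Srxn1, sulfiredoxin, averaged 124 ± 22.2 CPM in FL-shAlpl, 188 ± 38.1 in FL-shGFP and 75.2 ± 12.5 in NL-shGFP. It rose by 1.32 ± 0.17 in FL-shGFP against NL-shGFP (edgeR adjusted p = 4.40e-05) and fell by 0.59 ± 0.17 in FL-shAlpl against FL-shGFP (edgeR adjusted p = 0.0132). Osgin1, an oxidative stress response gene, rose by 1.37 ± 0.21 (edgeR adjusted p = 0.000164) and fell by 0.82 ± 0.21 (0.00780) in the same comparisons. Gclc and Gclm, the subunits of the enzyme that starts glutathione synthesis, both rose in FL-shAlpl against NL-shGFP, by 0.64 ± 0.13 (edgeR adjusted p = 0.00409) and 0.76 ± 0.14 (edgeR adjusted p = 0.00199). Gclc was also higher in FL-shGFP than in NL-shGFP (0.81 ± 0.13, edgeR adjusted p = 0.000231), and Gclm in FL-shAlpl than in FL-shGFP (0.57 ± 0.14, edgeR adjusted p = 0.00624).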
